A study of Mus musculus with 12 samples.

Results

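The genes described here make the building blocks of RNA and DNA: 34 genes of purine, pyrimidine and deoxynucleotide synthesis, of nucleotide salvage and of the kinases that finish nucleotides. They were listed by name from pathway knowledge, with earlier results of these data known, and found in the count table through their Ensembl identifiers. All 34 were matched among the 55487 genes listed. Purines are assembled stepwise on ribose phosphate until inosine monophosphate (IMP) is formed, which is then turned into AMP or GMP, whereas the pyrimidine ring is closed first and only then joined to the sugar. Salvage enzymes rebuild nucleotides from free bases and nucleosides, and ribonucleotide reductase turns ribonucleotides into the deoxynucleotides needed to copy DNA. These pathways are most active in cells that grow and divide, which bone marrow mesenchymal stromal cells (MSCs) do in culture.

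RNA was measured in primary MSCs from the bone marrow of wild type C57BL/6 mice, in 3 groups of 4 samples. The donors were female and 6 to 8 weeks old. All cells were grown in AMEM with 10% FBS and penicillin-streptomycin to 80% confluency. Control MSCs were untreated, A1-treated MSCs received 50 μM A1 for 6 h, and A1 + OVA-treated MSCs received 50 μM A1 with 1 mg/mL ovalbumin (OVA), the main protein of egg white, for 6 h. A1 is a variant of Accum, a bile acid joined to a nuclear localization peptide, and was described by the study as a molecule that makes MSCs present antigen. There was no group with OVA alone and no vehicle control, so the part of OVA is seen only on top of A1. The label of the OVA medium also names insulin without a dose, so that OVA and insulin cannot be told apart if insulin was in that medium. The labels do not say whether the 4 samples of a group came from separate cultures or donors, so that the p-values measure the spread between these samples, which may be technical.

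Libraries held between 13702348 and 16881995 counts. Of the mesenchymal stromal cell markers, 11 of 14 passed the filter on low counts, and their summed level was 9616 to 10540 CPM, each gene's counts relative to the TMM-scaled library total, in control, 9930 to 10558 in A1 and 9996 to 10326 in A1 + OVA. This sum is mostly collagen I, and single markers moved with treatment: with A1, 3 of the 11 rose and 4 fell, where 31.7% of all tested genes rose and 31.1% fell. Cd44 ranged over 169 to 183 CPM in control, 443 to 470.3 with A1 and 385 to 423 with A1 + OVA. Itgb1 went from 1451 ± 71.5 to 2225 ± 91.5 and 2138 ± 108 (mean ± SD, n = 4). Vcam1 went down from 226 ± 7.29 CPM to 117 ± 3.23 and 122 ± 3.95, and Pdgfra from 247 ± 9.64 to 125 ± 6.13 and 111 ± 10.6. These 4 passed the test with both treatments, and their part in the results on nucleotide genes was not tested. Lum and Dcn never exceeded 1 count and Thy1 reached 17 counts at most, whereas Col1a1 and Col1a2, the collagen I chains, stood at 3335 and 4266 CPM in control. Nt5e and Alcam were low as well, at 0.414 to 1.02 and 0.124 to 0.916 CPM over all samples. Of 15 haematopoietic markers, 2 passed the filter, and Cd3e, S100a8 and Hba-a1 had 0 counts in every sample. The 15 summed to 10.6 to 11.0 CPM in control, 12.5 to 14.96 with A1 and 11.3 to 13.4 with A1 + OVA. Most of this sum was Cd14, at 7.43 to 7.80 CPM in control, 10.3 to 12.6 with A1 and 8.52 to 10.05 with A1 + OVA. With A1, 1 of the 2 tested haematopoietic markers rose. The 6 endothelial markers summed to 0.916 CPM at most, and 8 adipocyte and osteoblast markers, of which 4 passed the filter, to 64.8 to 80.5 CPM.

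**Figure D1:**
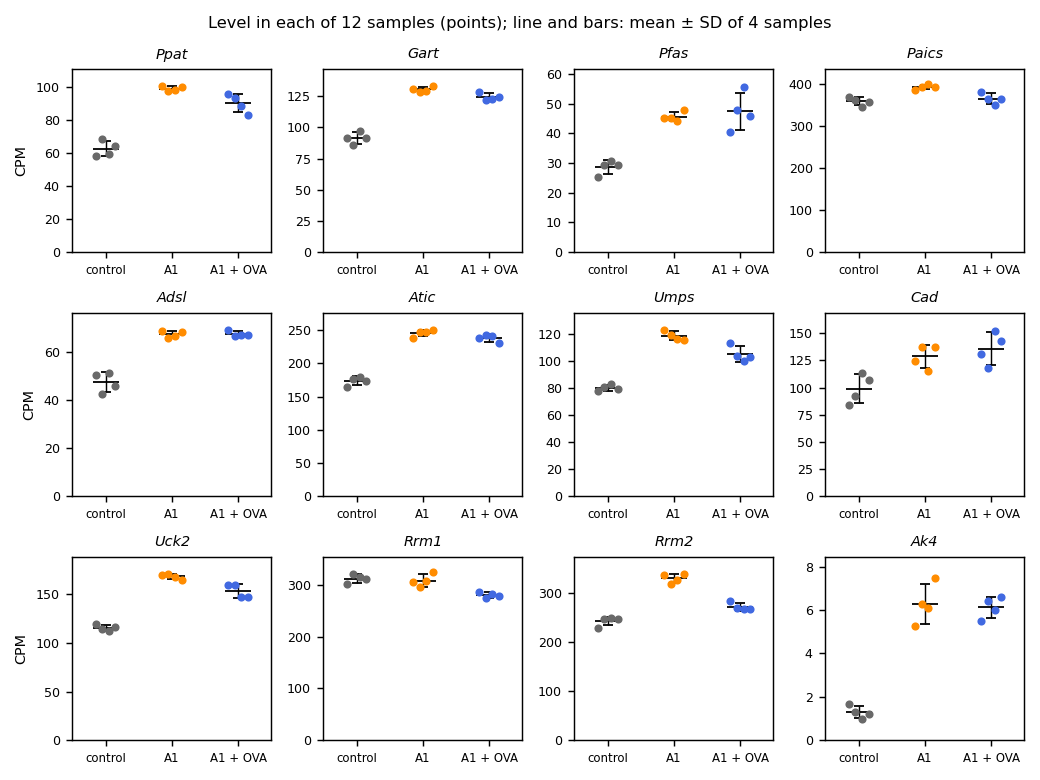
Level of 12 genes in CPM (vertical axis, starting at 0) in control, A1 and A1 + OVA samples. Points are the 4 samples of each group, the line is their mean and the bars are the SD. In Ppat, Gart, Pfas, Adsl, Atic, Umps, Cad, Uck2, Rrm2 and Ak4 every treated sample lies above every control sample. Paics and Rrm1 change by small amounts on a high level. Paics lies above every control sample with A1 only, and Rrm1 below every control sample with A1 + OVA only.

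In most steps, nucleotide synthesis genes were higher with A1 than in control. At an adjusted p under 0.05 (edgeR's quasi-likelihood test over 11314 protein-coding genes, the adjustment used throughout), 24 of 34 genes rose with A1, or 70.6%, where 31.7% of all tested genes rose. Prps2 and Ctps2 fell, or 5.88%, where 31.1% of all tested genes fell. All 34 passed the filter on low counts. The median log2 fold change was 0.30 over these genes and -0.0017 over all tested genes. With A1 + OVA, 23 genes rose and 5 (Prps2, Ctps2, Dck, Rrm1 and Cmpk1) fell, or 67.6% and 14.7%, against 29.7% and 27.9% of all tested genes, and the median was 0.25 against 0.0036. Both treatments were compared with the same 4 control samples, so these are not independent of each other. In bulk RNA, a change in the number of cells of a type and a change in RNA per cell cannot be told apart.

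Most of these changes were modest in size. Genes that were called and moved by 0.5 or more on the log2 scale, in either direction, are named DEGs here. Ppat, Gart, Pfas, Adsl, Atic, Umps, Uck2, Ak4 and Shmt1 were DEGs that rose with A1, which is 26.5% of the 34 against 9.41% of all tested genes. Ctps2 was the DEG that fell, 2.94% against 11.6%. With A1 + OVA, Ppat, Pfas, Adsl and Ak4 were DEGs that rose, 11.8% against 8.92% of tested genes, and the 5 genes that fell did so by less than the DEG threshold, which 8.79% of tested genes passed downwards. Gart, Adsl and Atic lay just above 0.5 with A1, and the 10 DEGs with A1 became 6 with upper-quartile scaling. Shmt1 was also lost there, because its adjusted p was 0.0615 with that scaling.

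**Figure D2:**
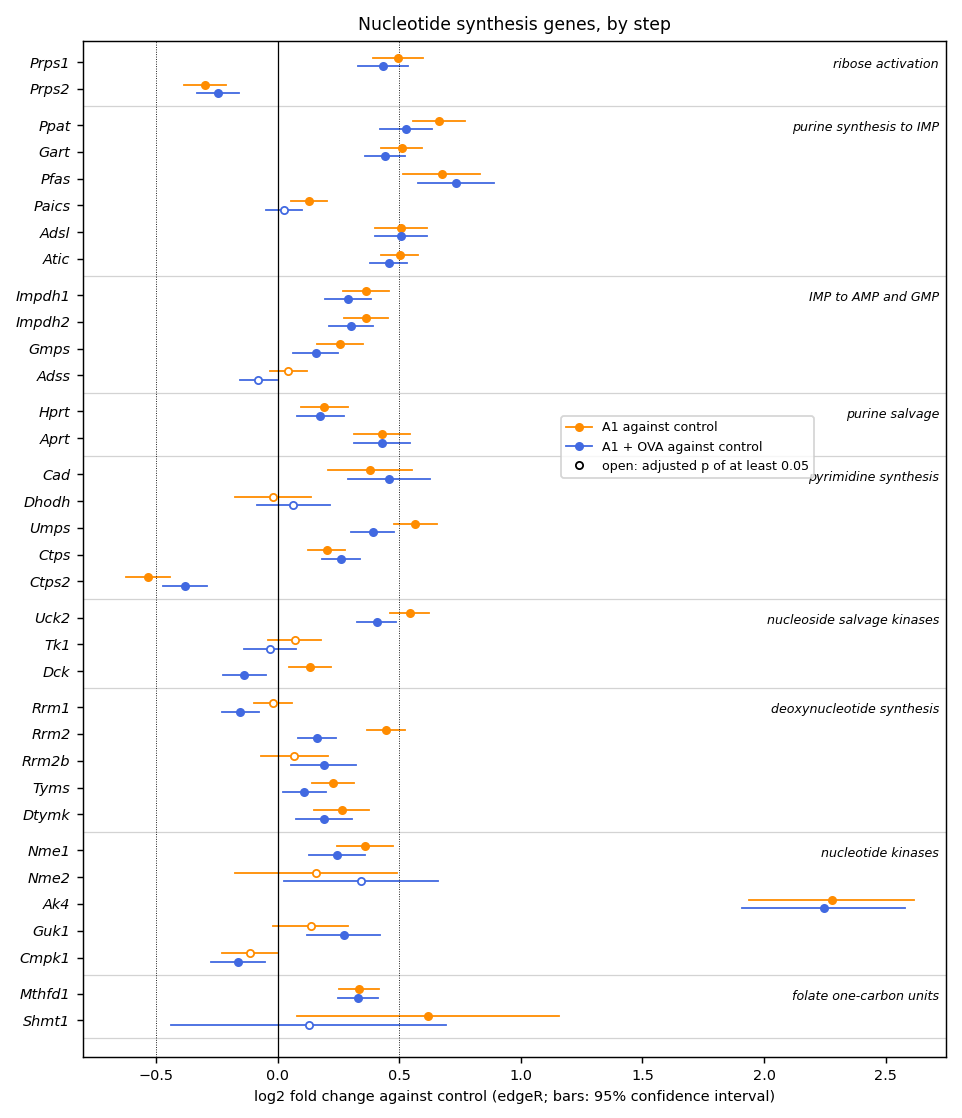
Log2 fold change of all 34 genes against control (horizontal axis), grouped by step, for A1 (orange) and A1 + OVA (blue). Points are edgeR estimates, bars are 95% confidence intervals, open points had an adjusted p of at least 0.05, and dotted lines mark 0.5 in each direction. Ak4 stands apart at 2.28 and 2.25, and the genes of purine synthesis to IMP other than Paics lie between 0.44 and 0.73. Prps2, Ctps2, Rrm1 and Cmpk1 lie below 0 with both treatments, of which Rrm1 and Cmpk1 were called with A1 + OVA only.

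**Figure D3:**
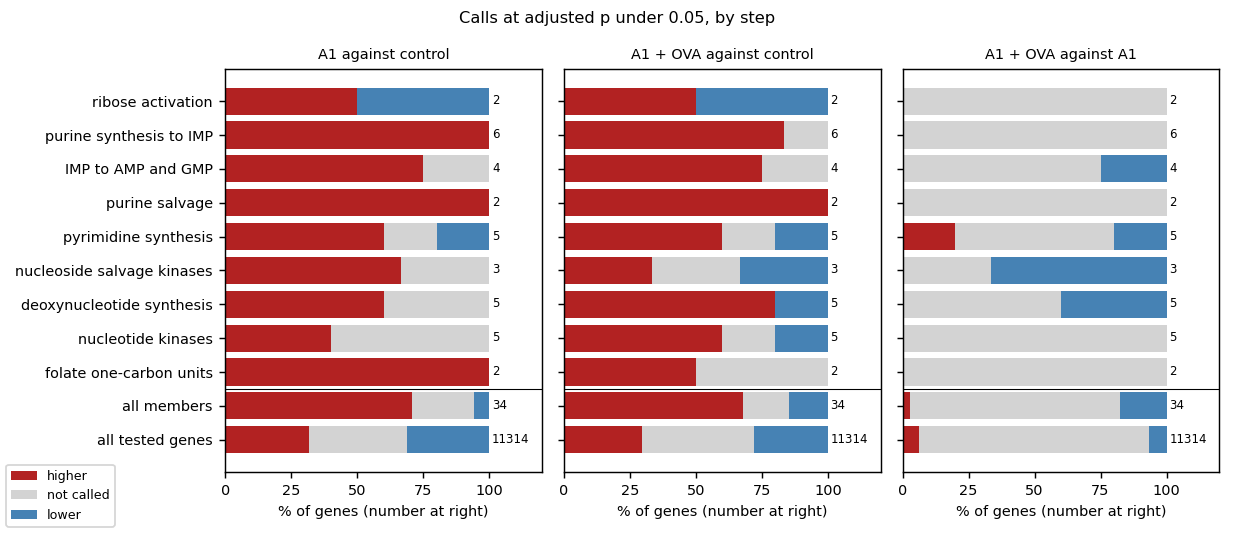
Share of the genes of each step that rose (red), fell (blue) or were not called (grey) at an adjusted p under 0.05, in 3 comparisons. The number of genes is at the right of each bar, and the last 2 bars are all 34 genes and all 11314 tested genes. Purine synthesis to IMP is wholly red with A1, and in A1 + OVA against A1 the calls are 6 in blue and 1 in red, with 4 of the 7 in salvage kinases and deoxynucleotide synthesis.

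The steps differed in how far they moved. The median log2 fold change with A1 was 0.51 for the 6 genes of purine synthesis to IMP, 0.31 for the 4 genes from IMP to AMP and GMP, 0.31 for the 2 genes of purine salvage, 0.20 for the 5 genes of pyrimidine synthesis, 0.13 for the 3 nucleoside salvage kinases, 0.23 for the 5 genes of deoxynucleotide synthesis and 0.16 for the 5 nucleotide kinases. With A1 + OVA the same medians were 0.48, 0.22, 0.30, 0.26, -0.03, 0.16 and 0.27. For the 2 genes of ribose activation, which moved in opposite directions, the medians were 0.10 and 0.09, and for the 2 folate genes 0.48 and 0.23. These medians over few genes are a description and were not tested against each other. In the order of the first 7 steps, 6, 3, 2, 3, 2, 3 and 2 genes rose with A1, and 5, 3, 2, 3, 1, 4 and 3 with A1 + OVA. In these steps Ctps2 fell with A1, and Ctps2, Dck, Rrm1 and Cmpk1 fell with A1 + OVA. Of all tested genes, 31.7% rose and 31.1% fell with A1, and 29.7% and 27.9% with A1 + OVA. Among the 3 nucleoside salvage kinases, 1 rose and 1 fell with A1 + OVA, which is near those shares.

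Before any treatment the steps were expressed at very unequal levels. Levels between genes are compared here as CPM per kilobase of exon in control (mean ± SD, n = 4). Paics, which carries out the middle steps of purine ring assembly, and Hprt, which recycles hypoxanthine and guanine, were highest at 114 ± 2.97 and 113 ± 4.73, a difference within their spread. Rrm2, the small subunit of ribonucleotide reductase, followed at 87.7 ± 3.21, and Aprt, which recycles adenine, and Ctps, which makes CTP, at 43.4 ± 4.30 and 41.1 ± 0.496 did not differ beyond their spread. Prps1, Prps2 and Rrm1 stood side by side at 28.8 ± 0.689, 28.5 ± 1.21 and 28.4 ± 0.746. Within the steps to IMP the levels ran from 114 ± 2.97 down to 3.60 ± 0.286 for Pfas, with Atic at 21.7 ± 0.838, Gart at 17.8 ± 0.909, Ppat at 14.2 ± 1.05 and Adsl at 8.40 ± 0.725. The lowest of the 34 were Rrm2b at 1.91 ± 0.122, Ak4 at 0.277 ± 0.0615 and Shmt1 at 0.173 ± 0.0446 CPM per kilobase. The exon length is that of all annotated transcripts together, so a gene with long unused exons appears low.

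Ribose activation was split between its isozymes. Prps1 and Prps2, both on the X chromosome (chrX:140456613-140476140 and chrX:167346322-167382749, GRCm38), encode phosphoribosyl pyrophosphate synthetases, which supply the activated sugar for purines, pyrimidines and salvage alike. Prps1 was at 58.9, 57.2, 55.7 and 58.2 CPM in the control samples, 82.4, 75.7, 87.2 and 78.8 with A1 and 84.6, 76.0, 75.3 and 74.8 with A1 + OVA. Every treated sample was above every control sample, and the log2 fold change was 0.49 (SE 0.050, adjusted p = 2.28e-08) with A1 and 0.43 (SE 0.050, adjusted p = 1.87e-07) with A1 + OVA. Prps2 went the other way, from 105, 117, 109.8 and 110.2 CPM in control to 93.6, 88.7, 88.2 and 88.4 with A1 and 95.3, 96.7, 89.1 and 91.6 with A1 + OVA. It fell by 0.30 (SE 0.042, adjusted p = 2.22e-06) and by 0.25 (SE 0.041, adjusted p = 2.74e-05) on the log2 scale, again with no overlap between groups.

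All 6 genes of purine synthesis to IMP rose with A1, and 5 of them with A1 + OVA. Ppat encodes the amidotransferase that takes the first committed step. Its level was 58.2, 68.4, 59.8 and 64.4 CPM in control, 101, 97.6, 98.5 and 100.1 with A1 and 95.8, 93.8, 88.9 and 83.5 with A1 + OVA. The log2 fold change was 0.66 (SE 0.051, adjusted p = 3.06e-10) with A1 and 0.53 (SE 0.051, adjusted p = 1.27e-08) with A1 + OVA, and neither treated group overlapped control. Gart, a single protein with 3 of the enzyme activities of the pathway, was at 91.7, 85.9, 97.4 and 91.7 CPM in control, 131, 128, 129 and 133 with A1 and 128, 122, 123 and 124 with A1 + OVA. It rose by 0.51 (SE 0.040, adjusted p = 3.14e-10) and 0.44 (SE 0.039, adjusted p = 3.5e-09). Pfas, the amidotransferase of the fourth step, had the largest rise of this step in both treatments. Its samples were at 25.3, 29.3, 30.6 and 29.2 CPM in control, 45.2, 45.3, 44.0 and 47.9 with A1 and 40.6, 47.8, 55.5 and 45.9 with A1 + OVA, with log2 fold changes of 0.67 (SE 0.076, adjusted p = 1.21e-07) and 0.73 (SE 0.075, adjusted p = 3.1e-08).

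Adsl, a lyase used once on the way to IMP and again on the way to AMP, was at 50.2, 42.3, 51.1 and 45.8 CPM in control, 68.6, 65.7, 66.6 and 68.0 with A1 and 69.0, 66.4, 66.9 and 67.1 with A1 + OVA. All treated samples were above all control samples, by 0.51 (SE 0.052, adjusted p = 2.73e-08) and 0.51 (SE 0.052, adjusted p = 2.55e-08). Atic, which closes the purine ring in the last steps to IMP, rose from 164, 177, 179 and 174 CPM to 238, 247, 247 and 249.8 with A1 and 238, 242, 242 and 231 with A1 + OVA. Its log2 fold changes were 0.50 (SE 0.037, adjusted p = 1.15e-10) and 0.46 (SE 0.037, adjusted p = 5.85e-10). Paics, the most highly expressed gene of the step, moved least, with means of 358 ± 9.34, 392 ± 5.69 and 364 ± 12.1 CPM (mean ± SD, n = 4). It rose by 0.13 (SE 0.036, adjusted p = 0.00321) with A1, whereas the value with A1 + OVA was 0.03 (SE 0.035, adjusted p = 0.564).

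Ppat and Paics are neighbours on opposite strands of chromosome 5 that overlap at their starts, at chr5:76913249-76951578 and chr5:76951307-76967509. Their start sites are 276 bases apart and their annotated exons share 272 bases on opposite strands, which strand-specific counting keeps apart. The 95% confidence intervals of their log2 fold changes with A1 were 0.55 to 0.77 for Ppat and 0.06 to 0.20 for Paics, and with A1 + OVA 0.42 to 0.64 and -0.05 to 0.10, so that these intervals did not meet in either treatment. The difference between both genes was not itself tested.

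The promoter windows of the genes of purine synthesis to IMP are shown because these genes rose together with A1, and because Ppat and Paics differ although they lie head to head. Each window runs from 250 bases before to 50 bases after the start site (RefSeq, GRCm38.p6), read 5′ to 3′ along the gene, at chr5:76951529-76951828 (minus strand) for Ppat, chr16:91646923-91647222 (minus strand) for Gart, chr5:76951052-76951351 (plus strand) for Paics, chr15:80948240-80948539 (plus strand) for Adsl and chr1:71556906-71557205 (plus strand) for Atic. Capitals mark CACGTG, the E-box that MYC and related factors can bind.
Ppat: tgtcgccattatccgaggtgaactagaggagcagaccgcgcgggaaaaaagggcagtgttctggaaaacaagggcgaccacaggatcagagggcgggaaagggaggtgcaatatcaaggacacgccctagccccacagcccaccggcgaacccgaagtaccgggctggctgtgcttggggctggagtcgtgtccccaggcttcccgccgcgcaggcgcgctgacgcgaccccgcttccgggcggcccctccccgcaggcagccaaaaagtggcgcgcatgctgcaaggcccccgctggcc
Gart: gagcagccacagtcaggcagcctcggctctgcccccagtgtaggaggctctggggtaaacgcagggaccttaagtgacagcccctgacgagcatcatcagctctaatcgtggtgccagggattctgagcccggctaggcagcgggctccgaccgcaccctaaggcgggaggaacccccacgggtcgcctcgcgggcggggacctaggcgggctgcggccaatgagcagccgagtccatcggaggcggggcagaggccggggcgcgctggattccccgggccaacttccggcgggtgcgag
Paics: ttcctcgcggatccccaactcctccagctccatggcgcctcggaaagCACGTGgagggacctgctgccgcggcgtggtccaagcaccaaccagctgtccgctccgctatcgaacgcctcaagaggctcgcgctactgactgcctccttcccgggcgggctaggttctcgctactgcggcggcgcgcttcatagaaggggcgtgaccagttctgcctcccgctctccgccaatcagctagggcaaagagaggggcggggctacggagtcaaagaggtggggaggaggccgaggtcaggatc
Adsl: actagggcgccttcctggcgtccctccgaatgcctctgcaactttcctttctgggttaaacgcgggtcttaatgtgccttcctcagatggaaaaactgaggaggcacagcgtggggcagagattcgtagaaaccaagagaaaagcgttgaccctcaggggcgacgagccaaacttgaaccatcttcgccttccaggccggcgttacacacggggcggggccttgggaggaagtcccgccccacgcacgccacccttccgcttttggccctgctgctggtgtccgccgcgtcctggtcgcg
Atic: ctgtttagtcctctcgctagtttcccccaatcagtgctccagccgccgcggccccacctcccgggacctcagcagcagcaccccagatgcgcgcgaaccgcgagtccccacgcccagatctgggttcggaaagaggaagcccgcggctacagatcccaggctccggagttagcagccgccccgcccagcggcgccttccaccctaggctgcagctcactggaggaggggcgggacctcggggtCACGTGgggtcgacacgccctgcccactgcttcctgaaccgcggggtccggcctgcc

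In these windows CACGTG begins 203 bases before the start site of Paics and 7 bases before that of Atic. With A1 these rose by 0.13 and 0.50 on the log2 scale. Ppat, Gart and Adsl, at 0.66, 0.51 and 0.51, had no CACGTG in their windows, and no window was given for Pfas, at 0.67. The windows of Ppat and Paics do not overlap, and the match of Paics lies inside the annotated Ppat gene. A window was given for 31 of the 34 genes. CACGTG, whose complement reads the same, was in at least 1 window of 7 genes (Ak4, Atic, Dtymk, Impdh2, Nme1, Paics and Tyms), which is 22.6% of 31, and in 8.09% of all 27025 genes with a window. TGATGCAA, a composite element that ATF4 can bind, and TTTCGCGC and TTTGGCGC, elements that E2F factors can bind, were searched on both strands as well. These were in the windows of 0 of the 31 genes, and in 1.03%, 0.37% and 0.58% of all genes with a window. Other sequences that ATF4 or E2F factors can bind were not searched. The 0 matches therefore do not mean that these windows lack such elements. A match of letters describes the window only and does not show that a factor binds.

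From IMP to AMP and GMP, Impdh1, Impdh2 and Gmps of the GMP branch rose, whereas Adss, of the AMP branch, did not pass the test. Adsl, given above, is also used on the way to AMP and rose in both treatments. Impdh1 and Impdh2 are the isozymes of IMP dehydrogenase, the rate-limiting enzyme towards GMP. Impdh1 was at 68.9, 64.4, 67.0 and 65.5 CPM in control, 88.9, 83.0, 86.0 and 83.9 with A1 and 76.1, 85.1, 78.0 and 85.2 with A1 + OVA. Impdh2 was at 112, 102.3, 107 and 96.0 CPM in control, 134, 127, 137 and 139 with A1 and 131, 128, 127 and 127 with A1 + OVA. Neither gene had a treated sample within the range of control, and both rose, Impdh1 by 0.36 (SE 0.046, adjusted p = 5.47e-07) and 0.29 (SE 0.045, adjusted p = 1.3e-05) and Impdh2 by 0.36 (SE 0.044, adjusted p = 2.63e-07) and 0.30 (SE 0.043, adjusted p = 4.2e-06) with A1 and A1 + OVA. Gmps, which completes GMP, rose by 0.26 (SE 0.045, adjusted p = 5.06e-05) and 0.16 (SE 0.045, adjusted p = 0.00565), with ranges of 127 to 145 CPM in control, 159 to 171 with A1 and 144 to 163 with A1 + OVA. Adss, which commits IMP to AMP, ranged from 145 to 149.8 CPM in control, 148 to 157 with A1 and 136 to 146 with A1 + OVA, with log2 differences of 0.04 (SE 0.037, adjusted p = 0.306) and -0.08 (SE 0.037, adjusted p = 0.0689) that did not pass. With A1 + OVA, Adss passed as lower with upper-quartile scaling (adjusted p = 0.0202), with all genes of the file (0.0452), and without A1 replicate 1, 3 or 4 or A1 + OVA replicate 3 (0.0328 to 0.049).

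Both genes of purine salvage rose in both treatments. Aprt was at 79.4, 62.6, 68.8 and 69.8 CPM in control, 101, 93.7, 90.4 and 92.4 with A1 and 90.6, 95.9, 94.5 and 96.3 with A1 + OVA. Its groups did not overlap control, and its log2 fold changes were 0.43 (SE 0.056, adjusted p = 9.15e-07) and 0.43 (SE 0.055, adjusted p = 9.36e-07). Hprt rose less, from 146 ± 6.10 CPM to 166 ± 9.53 and 164 ± 8.97 (mean ± SD, n = 4), by 0.19 (SE 0.047, adjusted p = 0.00121) and 0.18 (SE 0.046, adjusted p = 0.00273).

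In pyrimidine synthesis, 3 genes rose, Dhodh did not pass the test and Ctps2 fell, in both treatments. Cad, the large protein that carries out the first steps of the pathway, was at 84.2, 91.9, 113 and 107 CPM in control, 125, 137, 116 and 137 with A1 and 131, 118, 153 and 143 with A1 + OVA. The spread between its samples was wider than for most of these genes, and its log2 fold changes were 0.38 (SE 0.082, adjusted p = 0.000422) and 0.46 (SE 0.081, adjusted p = 5.58e-05). Dhodh, the mitochondrial enzyme between Cad and Umps, was at 15.7 ± 1.39, 15.4 ± 0.925 and 16.4 ± 0.515 CPM (mean ± SD, n = 4), with log2 differences of -0.02 (SE 0.075, adjusted p = 0.837) and 0.06 (SE 0.073, adjusted p = 0.465). Umps, which makes UMP, was at 77.4, 80.4, 82.8 and 79.3 CPM in control, 123, 119, 116 and 116 with A1 and 113, 104, 100.1 and 103 with A1 + OVA. The 3 ranges did not overlap, with A1 highest, and the log2 fold change was 0.57 (SE 0.043, adjusted p = 1.75e-10) with A1 and 0.39 (SE 0.043, adjusted p = 7.18e-08) with A1 + OVA.

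Ctps and Ctps2 are isozymes that turn UTP into CTP, and they moved in opposite directions. Ctps (chr4:120539868-120570276) was at 138, 135, 135 and 138 CPM in control, 149, 157, 161 and 159.5 with A1 and 165, 166, 167 and 155 with A1 + OVA. Ctps2 (chrX:162901238-163032508) was at 119, 113, 116 and 106 CPM in control, 79.8, 75.1, 82.1 and 76.8 with A1 and 90.2, 88.2, 83.2 and 87.0 with A1 + OVA. No treated sample of either gene lay within the range of control. Ctps rose by 0.20 (SE 0.037, adjusted p = 8.26e-05) and 0.26 (SE 0.037, adjusted p = 3.41e-06), and Ctps2 fell by 0.53 (SE 0.044, adjusted p = 7.33e-10) with A1 and by 0.38 (SE 0.043, adjusted p = 1.2e-07) with A1 + OVA on the log2 scale.

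Among the kinases that salvage nucleosides, Uck2, which phosphorylates uridine and cytidine, rose in both treatments. It was at 119.8, 114, 113 and 116 CPM in control, 170.4, 171, 168 and 165 with A1 and 160.0, 159.9, 147 and 147 with A1 + OVA. The groups did not overlap, and the log2 fold changes were 0.54 (SE 0.039, adjusted p = 7.92e-11) and 0.41 (SE 0.039, adjusted p = 9.56e-09). Dck, which phosphorylates deoxycytidine and purine deoxynucleosides, ranged over 57.9 to 60.9 CPM in control, 65.1 to 65.3 with A1 and 50.8 to 55.7 with A1 + OVA. It was thus above control with A1 at 0.13 (SE 0.042, adjusted p = 0.00925) and below control with A1 + OVA at -0.14 (SE 0.043, adjusted p = 0.00898). Tk1, the thymidine kinase of dividing cells, was at 60.4 ± 3.06, 63.4 ± 2.49 and 59.1 ± 3.83 CPM (mean ± SD, n = 4), and its log2 differences of 0.07 (SE 0.052, adjusted p = 0.254) and -0.03 (SE 0.052, adjusted p = 0.613) did not pass.

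The subunits of ribonucleotide reductase did not move as a unit. Rrm2, the small subunit used in dividing cells, was at 229.8, 246, 249 and 247 CPM in control, 337, 319.6, 327 and 339.9 with A1 and 283, 269, 268 and 267 with A1 + OVA. The 3 ranges were separate, with A1 highest and A1 + OVA between, and the log2 fold changes were 0.45 (SE 0.037, adjusted p = 1.14e-09) and 0.16 (SE 0.037, adjusted p = 0.000913). Rrm1, the large subunit, ranged over 301 to 321 CPM in control, 296 to 325 with A1 and 275 to 287 with A1 + OVA. Its log2 difference was -0.02 (SE 0.037, adjusted p = 0.672) with A1, whereas it fell by 0.15 (SE 0.037, adjusted p = 0.00114) with A1 + OVA. Rrm2b, the alternative small subunit that p53 can induce, was at 16.2, 18.7, 17.1 and 17.9 CPM in control, 17.9, 18.7, 18.1 and 18.7 with A1 and 20.5, 20.8, 18.8 and 19.6 with A1 + OVA. Only its value with A1 + OVA passed, at 0.19 (SE 0.064, adjusted p = 0.0156) against 0.07 (SE 0.066, adjusted p = 0.383) with A1, and the adjusted p with A1 + OVA was 0.0501 with DESeq2, 0.0533 without control replicate 1 and 0.0526 without A1 + OVA replicate 2.

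Tyms, which makes dTMP, and Dtymk, which phosphorylates it, rose in both treatments. Dtymk was at 49.7, 45.9, 47.9 and 46.5 CPM in control, 62.8, 56.9, 52.2 and 56.1 with A1 and 51.7, 52.4, 57.6 and 55.0 with A1 + OVA. Its treated samples were all above control, by 0.26 (SE 0.055, adjusted p = 0.000284) and 0.19 (SE 0.054, adjusted p = 0.00499). Tyms ranged over 62.3 to 64.4 CPM in control, 72.5 to 76.3 with A1 and 66.4 to 72.8 with A1 + OVA, with log2 fold changes of 0.23 (SE 0.042, adjusted p = 7.81e-05) and 0.11 (SE 0.042, adjusted p = 0.0296). The rise of Tyms with A1 + OVA did not pass with DESeq2 (adjusted p = 0.0705), nor without control replicate 4, A1 replicate 1, A1 replicate 4 or A1 + OVA replicate 1 (adjusted p = 0.0661, 0.0507, 0.052 and 0.125).

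The largest change of all 34 genes was in Ak4, a mitochondrial adenylate kinase family member (chr4:101419277-101466995, Ensembl ENSMUSG00000028527). Its raw counts were 27, 22, 16 and 19 in control, 73, 82, 80 and 103 with A1 and 76, 101, 91 and 107 with A1 + OVA. In CPM these were 1.67, 1.30, 0.990 and 1.19 in control, 5.28, 6.26, 6.11 and 7.48 with A1 and 5.51, 6.40, 6.01 and 6.59 with A1 + OVA, so that the lowest treated sample was well above the highest control sample. The log2 fold change was 2.28 (SE 0.16, adjusted p = 8.2e-11) with A1 and 2.25 (SE 0.16, adjusted p = 9.24e-11) with A1 + OVA. Ak4 remained one of the lowly expressed genes after treatment, at 1.35 ± 0.195 CPM per kilobase with A1.

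The other nucleotide kinases moved by less than 0.5 on the log2 scale. Nme1, a nucleoside diphosphate kinase, was at 49.6, 43.9, 43.0 and 41.3 CPM in control, 61.3, 54.4, 54.6 and 57.8 with A1 and 54.1, 53.4, 51.0 and 52.2 with A1 + OVA, and rose by 0.36 (SE 0.056, adjusted p = 9.81e-06) and 0.24 (SE 0.056, adjusted p = 0.000762). Nme2, its close relative next to it on chromosome 11, was at 3.59, 3.01, 4.02 and 3.26 CPM in control, 3.98, 4.05, 3.59 and 3.85 with A1 and 5.80, 4.69, 3.30 and 3.94 with A1 + OVA, with log2 differences of 0.16 (SE 0.16, adjusted p = 0.409) and 0.34 (SE 0.15, adjusted p = 0.0588). The latter passed without control replicate 3 or A1 + OVA replicate 3 or 4 (adjusted p = 0.0372, 0.0117 and 0.0468). The level of Nme2 is uncertain, because 48.9% of its exon bases, and 12.5% of those of Nme1, are also annotated to a read-through transcript of the same strand, so that reads could have been left uncounted. Guk1, which phosphorylates GMP, rose with A1 + OVA by 0.27 (SE 0.073, adjusted p = 0.003) and had 0.14 (SE 0.075, adjusted p = 0.122) with A1. Cmpk1, which phosphorylates CMP and UMP, fell with A1 + OVA by 0.16 (SE 0.054, adjusted p = 0.0126), and the value with A1 was -0.11 (SE 0.054, adjusted p = 0.0706). The Guk1 and Cmpk1 samples of both treatments overlapped control, with 17.2 to 21.2 and 110.4 to 128 CPM in control and 20.8 to 23.5 and 101 to 117 CPM with A1 + OVA. Without control replicate 2 the adjusted p of Cmpk1 with A1 + OVA was 0.0589, and Guk1 with A1 passed without control replicate 1 (adjusted p = 0.015). Cmpk1 with A1 passed as lower with upper-quartile scaling, with no filter on low counts, and without control replicate 3, A1 replicate 3 or A1 + OVA replicate 1 (adjusted p from 0.0181 to 0.0468).

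The folate enzymes that supply one-carbon units to the purine ring differed in abundance. Mthfd1, the cytosolic enzyme that makes formyl-tetrahydrofolate, was at 98.5, 95.3, 96.5 and 98.8 CPM in control, 123, 117, 124 and 126 with A1 and 126, 118, 129 and 117 with A1 + OVA. Its groups did not overlap control and it rose by 0.33 (SE 0.040, adjusted p = 2.67e-07) and 0.33 (SE 0.040, adjusted p = 3.16e-07). Shmt1, the cytosolic serine hydroxymethyltransferase, rested on few reads, with raw counts of 8, 13, 14 and 9 in control, 12, 13, 14 and 17 with A1 and 10, 10, 14 and 11 with A1 + OVA. In CPM the samples were at 0.495, 0.768, 0.866 and 0.564 in control, 0.868, 0.993, 1.07 and 1.23 with A1 and 0.725, 0.633, 0.924 and 0.678 with A1 + OVA. Its rise with A1, 0.62 (SE 0.26, adjusted p = 0.0491), was at the edge of the threshold, with an adjusted p of 0.135 with DESeq2 and 0.14, 0.11, 0.0607, 0.0835 and 0.147 without control replicates 1 and 4 and A1 replicates 2, 3 and 4. With A1 it also missed the threshold with upper-quartile scaling, no filter on low counts, all genes of the file and the compared groups alone (adjusted p = 0.0615, 0.0957, 0.0549 and 0.054). The value of Shmt1 with A1 + OVA was 0.13 (SE 0.27, adjusted p = 0.736).

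The balance between isozymes was compared sample by sample as the log2 ratio of counts per kilobase, with a two-sided exact permutation test of 4 against 4 samples. The smallest p this design allows is 0.0286, and 6 of the 15 tests of 5 pairs in 3 comparisons reached it, which gave an adjusted p of 0.0714, so that none passed the correction. Prps1/Prps2 was at 0.12, -0.07, -0.02 and 0.04 in control, 0.77, 0.73, 0.94 and 0.79 with A1 and 0.79, 0.61, 0.72 and 0.67 with A1 + OVA. On the linear scale a ratio of 1.01 in control became 1.75 with A1 and 1.62 with A1 + OVA, with no overlap with control in 4 of 4 samples of each group (exact p = 0.0286, adjusted p = 0.0714 for each). Ctps/Ctps2 was at 0.72, 0.77, 0.73 and 0.88 in control, 1.41, 1.57, 1.49 and 1.56 with A1 and 1.38, 1.42, 1.51 and 1.35 with A1 + OVA. The ratio on the linear scale went from 1.71 to 2.84 and 2.67, again with all treated samples above control (exact p = 0.0286, adjusted p = 0.0714 for each).

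The ratio Rrm2/Rrm2b was at 5.55, 5.44, 5.59 and 5.50 in control, 5.96, 5.81, 5.89 and 5.91 with A1 and 5.50, 5.41, 5.55 and 5.49 with A1 + OVA. A1 stood above both other groups in 4 of 4 samples (exact p = 0.0286, adjusted p = 0.0714), whereas A1 + OVA and control overlapped (exact p = 0.543, adjusted p = 0.74). For Impdh1/Impdh2 the values were -0.79, -0.76, -0.78 and -0.65 in control, -0.69, -0.71, -0.77 and -0.82 with A1 and -0.88, -0.69, -0.80 and -0.68 with A1 + OVA, and the 3 groups overlapped (exact p = 0.971 for A1 and 0.714 for A1 + OVA against control). For Nme1/Nme2 they were 2.26, 2.34, 1.90 and 2.14 in control, 2.42, 2.22, 2.40 and 2.38 with A1 and 1.70, 1.99, 2.42 and 2.20 with A1 + OVA, with an exact p of 0.0857 for A1 and 0.714 for A1 + OVA against control.

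**Figure D4:**
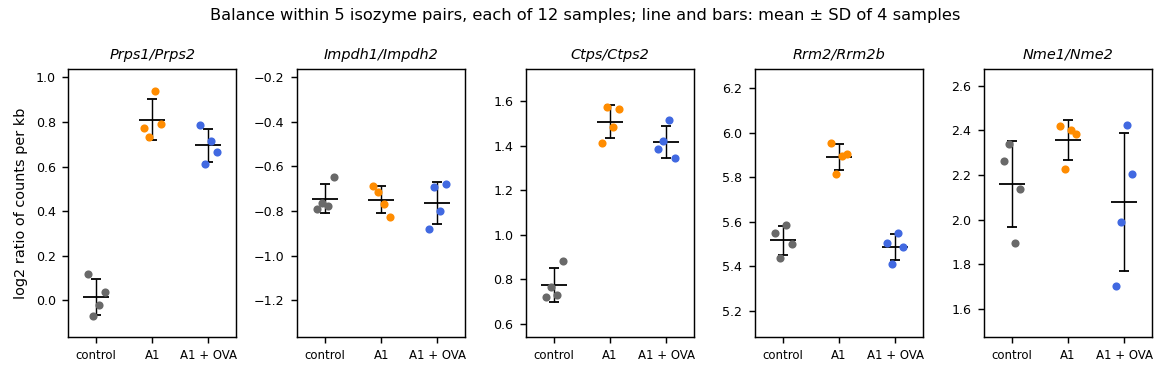
Log2 ratio of counts per kilobase of the first to the second gene of 5 isozyme pairs (vertical axes, each spanning 1.2 log2 units but centred differently) in control, A1 and A1 + OVA. Points are samples, the line and bars are mean ± SD of 4 samples. Prps1/Prps2 and Ctps/Ctps2 are higher with both treatments, Rrm2/Rrm2b is higher with A1 alone, and the groups of Impdh1/Impdh2 overlap.

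Between both treatments, 6 genes were lower in A1 + OVA than in A1, among them both main subunits of ribonucleotide reductase. The call of Rrm1, the large subunit, depended on single samples, as given below. In A1 + OVA against A1, 6 of 34 genes fell, or 17.6% against 6.81% of all tested genes, and Ctps2 rose, or 2.94% against 6.05%. The median over the 34 genes was -0.063, against 0.0057 over all tested genes. Rrm2 fell by 0.28 (SE 0.037, adjusted p = 3.12e-05) and Dck by 0.27 (SE 0.043, adjusted p = 0.000255) on the log2 scale. Umps, Rrm1, Uck2 and Adss fell by 0.18, 0.14, 0.14 and 0.12, with adjusted p-values of 0.00823, 0.019, 0.0231 and 0.0307. Ctps2 rose by 0.15 (SE 0.045, adjusted p = 0.0284). These changes were smaller than the DEG threshold, which 0.769% of tested genes passed upwards and 0.433% downwards. In all 6 genes and in Ctps2 the 4 samples of A1 + OVA did not overlap the 4 of A1. The same held for Ppat, Gart, Paics, Rrm2b and Nme1, which were not called. The share of all tested genes without overlap was not counted, here or for the comparisons with control. A lack of overlap therefore does not set these genes apart from other genes.

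The count of falling genes in this comparison depends on single samples, with 3 genes without A1 + OVA replicate 4 and 8 at most without another sample. Ctps2 lost its call without A1 replicate 1, 2 or 4 and without A1 + OVA replicate 1, 2 or 4, with adjusted p-values from 0.0523 to 0.0876. Adss lost it without A1 replicate 2 or 4 and without A1 + OVA replicate 1, 2 or 4 (adjusted p from 0.0707 to 0.0916), Uck2 without A1 replicate 2 and A1 + OVA replicate 3 or 4 (0.0581 to 0.0873) and Rrm1 without A1 replicate 4 and A1 + OVA replicate 2 or 4 (0.052 to 0.0726). Rrm2, Dck and Umps kept their calls whichever of the 12 samples was left out. Without A1 + OVA replicate 1, Ppat, Paics and Tyms passed as well, with adjusted p-values of 0.0466, 0.0317 and 0.0248, and Paics passed with DESeq2 (0.0269) and without control replicate 1 (0.0438). Tyms, Tk1 and Dtymk, the genes of thymidylate supply, had log2 differences of -0.12 (SE 0.042, adjusted p = 0.0701), -0.10 (SE 0.052, adjusted p = 0.215) and -0.07 (SE 0.054, adjusted p = 0.416). For the steps to IMP the differences ran from -0.13 for Ppat (adjusted p = 0.0862) to 0.06 for Pfas (adjusted p = 0.648).

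Genes of cycling cells were read beside the deoxynucleotide genes. The 5 deoxynucleotide genes had medians of 0.23 with A1, 0.16 with A1 + OVA and -0.12 in A1 + OVA against A1. Of 20 genes of cycling cells, 15 rose with A1 and Mki67 fell. With A1 + OVA 6 rose and 3 fell, and 14 fell in A1 + OVA against A1, with medians of 0.21, 0.03 and -0.19 in the same order. Of all tested genes, 31.7% rose and 31.1% fell with A1, 29.7% rose and 27.9% fell with A1 + OVA, and 6.81% fell in A1 + OVA against A1, so that the 6 of 20 that rose with A1 + OVA are near the background. Their summed level was 3043 to 3351 CPM in control, 3211 to 3465 with A1 and 2965 to 3081 with A1 + OVA. The replication licensing genes Cdc6 and Cdt1, named after their values were seen, rose by 0.69 and 0.60 with A1, whereas Mki67, a marker of proliferating cells, was at -0.49 with A1 and -0.46 with A1 + OVA. The part of cycling cells in the differences of Rrm1, Rrm2 and Dck was not tested.

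The lists of genes that surround nucleotide synthesis are read against the share of all tested genes, of which 31.7% rose and 31.1% fell with A1, and 29.7% and 27.9% with A1 + OVA. Of 9 genes of ribose phosphate supply, most of them enzymes of the pentose phosphate pathway, 1 rose and 2 fell with A1, and 2 rose and 3 fell with A1 + OVA, with medians of -0.02 and -0.03. One-carbon and serine supply had 8 genes that rose and 1 that fell of 14 tested with A1, and 7 and 1 with A1 + OVA, with medians of 0.17 and 0.11. In that list, Mthfd2 and Mthfd1l, enzymes of the mitochondrial folate pathway named after their values were seen, rose by 0.53 (SE 0.037, adjusted p = 4.85e-11) and 0.51 (SE 0.042, adjusted p = 7.57e-10) with A1. Other salvage and interconversion genes were mixed, with 7 that rose and 8 that fell of 26 tested with A1 and 10 and 6 with A1 + OVA. Breakdown had 5 that rose and 2 that fell of 14 tested with A1, and 4 and 3 with A1 + OVA. For breakdown the shares that rose are near that background. For other salvage and interconversion with A1, the shares that rose and that fell are near it as well.

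Within these lists, changes of at least 1 on the log2 scale were found in 4 genes. Slc29a2, an equilibrative nucleoside transporter, was at 1.55, 0.887, 1.42 and 0.815 CPM in control, 4.34, 5.34, 5.19 and 3.27 with A1 and 4.49, 3.48, 4.89 and 4.93 with A1 + OVA. It rose by 1.95 (SE 0.21, adjusted p = 7.86e-08) and 1.92 (SE 0.21, adjusted p = 8.36e-08) on a low level. Its abundant relative Slc29a1, named after its values were seen, rose from 235 ± 13.5 to 434 ± 12.4 CPM with A1 and 358 ± 13.9 with A1 + OVA (mean ± SD, n = 4), by 0.88 and 0.61, and Slc29a3 fell in both, so that 2 of the 3 tested transporters rose. Samhd1, which degrades deoxynucleotides, was at 433, 440.2, 464 and 454 CPM in control, 222, 209.9, 222 and 221 with A1 and 224, 225, 216 and 231 with A1 + OVA. It fell by 1.03 (SE 0.037, adjusted p = 6.68e-16) and by 1.00 (SE 0.037, adjusted p = 1.32e-15). Gda, a guanine deaminase, was below 1 CPM in every sample, at 0.805, 0.768, 0.804 and 0.627 in control, 0.795, 0.229, 0.458 and 0.508 with A1 and 0.362, 0.317, 0.330 and 0.370 with A1 + OVA, and fell with A1 + OVA by 1.11 (SE 0.33, adjusted p = 0.00658).

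Of 12 tested regulators, 6 rose and 2 fell with A1, and 5 rose and 1 fell with A1 + OVA, where 31.7% and 31.1% of all tested genes rose and fell with A1 and 29.7% and 27.9% with A1 + OVA. Myc, a transcription factor known to act on many nucleotide synthesis genes, was at 66.6, 62.8, 67.6 and 70.4 CPM in control, 132, 135, 138 and 142 with A1 and 127, 127, 137 and 127 with A1 + OVA. Its level was about 2 times that of control in every treated sample, with log2 fold changes of 1.03 (SE 0.043, adjusted p = 8.55e-15) and 0.95 (SE 0.043, adjusted p = 3.54e-14). Mycn had 0 counts in every sample. Atf4, a factor of the amino acid and stress response, was at 307, 288, 303 and 295 CPM in control, 389.8, 386, 405 and 392 with A1 and 383, 393, 378 and 387 with A1 + OVA, and rose by 0.40 (SE 0.035, adjusted p = 1.97e-09) and 0.37 (SE 0.035, adjusted p = 7.33e-09). Whether either factor acts on the genes above was not tested.

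**Figure D5:**
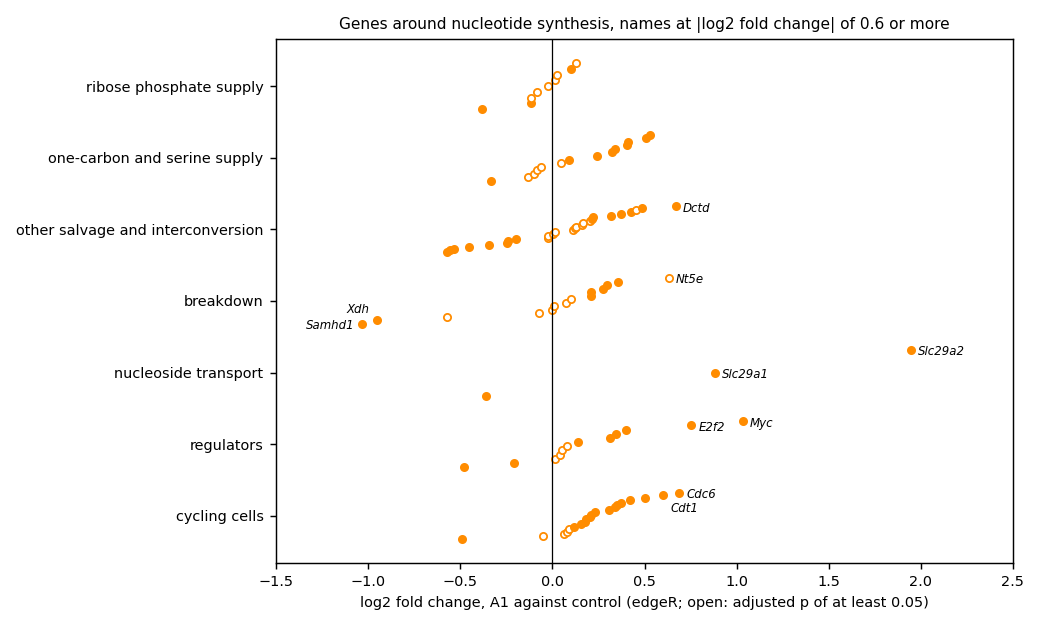
Log2 fold change with A1 against control (horizontal axis) of the tested genes in 7 lists around nucleotide synthesis. Each point is a gene, open points had an adjusted p of at least 0.05, and names are given to genes that moved by 0.6 or more. Slc29a2, Slc29a1 and Myc lie at the right, Samhd1 and Xdh, which makes uric acid, at the left.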

How the data were processed

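Strand-specific polyA libraries of the 12 samples were sequenced in pairs. The authors aligned the reads to GRCm38 with STAR 2.7 and summarized them per gene with featureCounts 2.0, after bcl2fastq 2.20 (versions from the submitters' processing notes). The deposited values are raw counts of 55487 genes, without filter or normalization. The paper's methods name DESeq2 and a filter, which the counts do not include. Symbols and exon lengths came from GENCODE M21 of GRCm38, which held 99.53% of the identifiers, and promoter windows from RefSeq.

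Protein-coding genes were kept with filterByExpr, scaled by TMM and tested with edgeR 4.0.16 in R 4.3.3, in one fit of 12 samples with 3 groups taken from the sample titles, with Benjamini-Hochberg adjustment over 11314 genes. CPM values use each library's total over the tested genes times its TMM factor; all genes summed to 13702348 to 16881995 counts per library. A signal was read from above 3 counts, and the 4 samples per group limit the precision. The TMM factors ran from 1.026 to 1.042 in control, 0.974 to 0.988 in A1 and 0.982 to 0.993 in A1 + OVA. SEs were derived from the F statistic. Isozyme ratios had 0.5 counts added.

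The members and lists were chosen with earlier results of these data known. Values in every sample are given for the called gene with the largest change of each step and treatment, for isozyme pairs and for DEGs. Of the surrounding lists, genes called with a change of 1 or more on the log2 scale are named, with Myc, Mycn and Atf4, and others are said to be named after their values were seen. Alternatives were DESeq2 1.42.0, upper-quartile scaling, other filters, all genes of the file, the compared groups alone, the replicate number as a block and each sample left out. The test was tried on simulated counts. Replicate pairs differed by 2.18 to 9.00 times the counting variance, so that no library was a copy of another. The sequencing indices follow the order of the groups, and no batch is labelled.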

Additional observations from a re-analysis of the deposited data

Results flagged for a closer look

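Over the 34 genes in 3 groups of 4 samples each, 7 cases held a sample far from the other 3 by Dixon's test, and chance flags about 1 in 20. Replicate 1 was such a sample in 6 of the 7, of which 3 were in A1 + OVA, but genes of the same library are not independent cases. In A1 + OVA replicate 1, Prps1 was at 84.6 CPM against 74.8 to 76.0 in the others, Rrm2 at 283 against 267 to 269 and Tyms at 72.8 against 66.4 to 67.0. In A1 replicate 1, Prps2 was at 93.6 CPM against 88.2 to 88.7 and Tk1 at 67.1 against 62.0 to 62.2. In control replicate 1, Rrm2 was at 229.8 CPM against 246 to 249. In A1 + OVA replicate 4, Ctps was at 155 CPM against 165 to 167. The cause was not tested.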

How the results depend on the processing

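With A1 against control, 10 of the 34 genes were DEGs, 6 with upper-quartile scaling and 1 at a threshold of 1, and with A1 + OVA 4 became 1 at that threshold. Leaving out each sample gave 0 to 1 genes that rose and 3 to 8 that fell in A1 + OVA against A1. No alternative scaling moved the median of all genes by over 0.1. Of the log2 fold changes of single genes under the alternatives, 1852 kept their direction and their side of the threshold, 39 lost a call, 20 gained one and 24 differences near 0 changed sign. In A1 + OVA against A1 the latter included Adsl (-0.003 with DESeq2, -0.001 with no filter, -0.003 with all genes of the file), Aprt (0.006 with upper-quartile scaling, 0 with at least 10 counts, 0.001 with the compared groups alone) and Mthfd1 (0.004 with upper-quartile scaling). The median of ribose activation, which is not among the 24, also changed sign with upper-quartile scaling (0.002). Leaving out samples gave -0.063 to 0.038 for Dhodh and -0.051 to 0.002 for Rrm1 (A1 against control), and, in A1 + OVA against A1, -0.025 to 0.123 for Pfas, -0.01 to 0.008 for Adsl, -0.053 to 0.02 for Hprt, -0.023 to 0.03 for Aprt, -0.113 to 0.061 for Ak4 and -0.028 to 0.017 for Mthfd1. The log2 ratio Impdh1/Impdh2 differed by -0.024 to 0.029 (A1 against control), -0.046 to 0.021 (A1 + OVA against control) and -0.043 to 0.025 (A1 + OVA against A1), and Nme1/Nme2 by -0.195 to 0.046 (A1 + OVA against control).

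Same-numbered samples did not deviate together (mean correlation 0.021, from -0.132 to 0.156, against -0.007 for different numbers). With the replicate number as a block, 24 genes rose and 2 fell with A1, 23 and 5 with A1 + OVA, and 1 and 6 in A1 + OVA against A1, the counts without it, and Aprt was at 0.003 in the last comparison. The paired ratio test cannot go below 0.125. Genes near 1 CPM, such as Shmt1, are limited by depth.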

Other observations

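Some enzymes of breakdown and interconversion, named after their values were seen, moved by amounts like those of the synthesis genes or more. Xdh, which makes uric acid from purines, was at 101 ± 1.15 CPM in control, 52.0 ± 3.53 with A1 and 69.3 ± 5.32 with A1 + OVA (mean ± SD, n = 4). It fell by 0.95 and 0.54 on the log2 scale (adjusted p = 1.37e-12 and 9.93e-09, edgeR), and was higher with A1 + OVA than with A1 by 0.41 (SE 0.055, adjusted p = 3.46e-05), in 4 of 4 samples. Ampd3, which deaminates AMP, was at 9.34 to 11.0 CPM in control, 10.8 to 11.8 with A1 and 15.9 to 19.6 with A1 + OVA. Its log2 fold change was 0.17 (SE 0.087, adjusted p = 0.0969) with A1, 0.76 (SE 0.080, adjusted p = 3.99e-08) with A1 + OVA and 0.59 (SE 0.081, adjusted p = 4.49e-05) between both treatments. Dctd, which turns dCMP into dUMP for thymidylate synthesis, rose by 0.67 (SE 0.044, adjusted p = 2.28e-11) with A1 and 0.58 (SE 0.044, adjusted p = 2.77e-10) with A1 + OVA. Ak1, the cytosolic adenylate kinase, fell by 0.57 and 0.56 (adjusted p = 4.44e-10 and 6.28e-10), opposite to Ak4. Dguok, the mitochondrial deoxyguanosine kinase, fell by 0.56 and 0.46 (adjusted p = 2.52e-05 and 0.000165).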
